A study of Homo sapiens with 10 samples.

Results

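The MS4A genes of the human 11q12 cluster encode small proteins that cross the membrane several times, and the best known of them, MS4A1, encodes the B-cell antigen CD20. The 10 members described here, MS4A1, MS4A2, MS4A3, MS4A4A, MS4A6A, MS4A7, MS4A8, MS4A12, MS4A14 and MS4A15, were found by their primary symbol among the 27142 genes of the deposited expression table. All 10 were present, each with 1 RefSeq accession. The members were chosen by family name, and the family was chosen on the RPKM of MS4A1 in these 4 libraries, which was already known to be among the most raised, so the levels of all members in this contrast are given as a description and no test is made of them.

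All 4 RNA libraries came from parental 697 cells, a line from a human pre-B acute lymphoblastic leukaemia. In the tested libraries (n = 2) the cells received 12-O-tetradecanoylphorbol-13-acetate (TPA, 0.5 µg/ml), a phorbol ester that activates protein kinase C, and the other libraries (n = 2) were labelled control. The labels give 1 range of exposure, 0 to 24 h, without saying which time belongs to which library, and they do not say whether replicates were separate cultures, so p-values measure the spread between these libraries, which may be technical. The series also holds CTCF and histone H1 ChIP and input DNA samples, 6 in all, of which 3 (both H1 samples and 1 input) came from an inducible 697 derivative that expresses FH-NAP1; none of the 6 was analysed here.

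CD20 is absent from the earliest B-cell precursors, appears as pre-B cells become immature B cells, and is lost again in plasma cells. It sits in the plasma membrane as an oligomer, has been linked to calcium entry after B-cell receptor signalling, and is the target of rituximab. The relatives are used elsewhere in the blood and in epithelia. MS4A2 is the beta chain of the high-affinity IgE receptor of mast cells and basophils, MS4A3 belongs to granulocyte and monocyte precursors, MS4A4A, MS4A6A and MS4A7 to monocytes and macrophages, and MS4A12 to the colon.

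Values were in RPKM, in which the reads on a gene are divided by the length of its transcript and by the depth of the library. MicroRNA hairpins, whose lengths RefSeq gives, placed the value of 1 read on 1 kb of transcript at 0.0220 and 0.0236 RPKM in the TPA libraries and at 0.0216 and 0.0222 RPKM in the controls. These steps correspond to 45.4 and 42.3 M reads with TPA and to 46.3 and 45.1 M reads in control. Of hairpin values worth under 10 reads, 98.0% to 98.9% were whole numbers of reads within 0.05 of a read. The values that set the step were among them, 80 of 210 and 60 of 190 with TPA and 53 of 203 and 64 of 200 in control. That share is thus not an independent check of the step. A member at a few hundredths of an RPKM therefore rested on a few reads at most. RPS18, a ribosomal protein gene that every cell uses, was at 0 in 1 control library and at 0.139 RPKM or less in the others, so a gene at 0 is called only listed at 0.

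MS4A1 had 282 and 300.0 RPKM in the TPA libraries, against 0.839 and 0.632 RPKM in the control libraries. Both TPA values lay far above both controls, and the replicates of each group were close. The means were 291 ± 13.0 RPKM with TPA and 0.736 ± 0.146 RPKM in control (SD, n = 2 each), a ratio of 395. In bulk RNA, more cells with the transcript and more transcript in each cell cannot be told apart. Expressed as reads on each kb of transcript, MS4A1 had 12782 and 12704 with TPA against 38.9 and 28.5 in control, so the control level, though low, stood above single reads. On the log2(RPKM + 1) scale the difference was 7.40 (SE 0.136), the third largest of 12159 genes tested, and the log2 of the ratio of mean RPKM was 8.63. MS4A1 took rank 139 and 142 by RPKM among the 18145 and 18194 genes above 0 in the TPA libraries, against rank 11720 and 12045 among 17251 and 17076 genes in the controls. Of the RPKM summed over the 10 members, MS4A1 made up 98.9% with TPA and 82.2% in control.

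**Figure D1:**
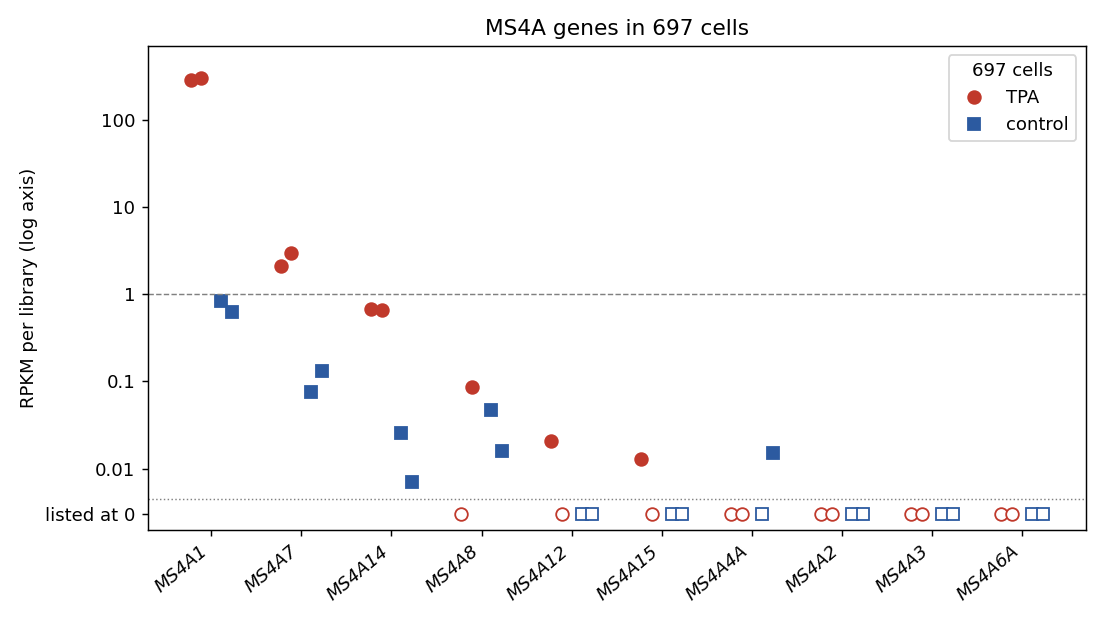
RPKM of each of the 10 MS4A members in each library on a log axis, with TPA libraries as red circles left of the control libraries as blue squares; open symbols on the lowest line are values listed at 0, and the dashed line marks 1 RPKM. MS4A1, MS4A7 and MS4A14 have both TPA values above both control values, and the other 7 members stay below 0.1 RPKM.

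MS4A7, a member found mainly in monocytes and macrophages, had 2.08 and 2.94 RPKM with TPA, against 0.076 and 0.132 RPKM in control. The groups did not overlap, and the TPA libraries differed more from each other than those of MS4A1 did. The means were 2.51 ± 0.604 RPKM with TPA and 0.104 ± 0.0396 RPKM in control (SD, n = 2 each), a ratio of 24.1. The control level amounted to 3.52 and 5.95 reads on each kb, so that ratio rests on few reads, whereas the TPA level amounted to 94.6 and 124 reads on each kb. On the log2(RPKM + 1) scale, which understates the change of genes this low, the difference was 1.66 (SE 0.154), in place 661 of the genes tested. MS4A1 stood 116 times above MS4A7 in mean RPKM with TPA and 7.07 times above it in control.

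MS4A14 had 0.673 and 0.658 RPKM with TPA, against 0.026 and 0.007 RPKM in control. The TPA libraries were close to each other and both lay above both controls. With TPA this came to 30.5 and 27.9 reads on each kb, and in control to 1.20 and 0.315, so no ratio is given. The difference on the log2(RPKM + 1) scale was 0.71. MS4A1, MS4A7 and MS4A14 thus shared a direction while their levels with TPA spanned a 437-fold range, from MS4A14 up to MS4A1, and the values of neighbours in that order did not overlap in either group.

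The other 7 members stayed below 0.1 RPKM in every library. MS4A8 had 0 and 0.087 RPKM with TPA, against 0.047 and 0.016 RPKM in control, so its groups overlapped. MS4A12 was listed at 0.021 RPKM in TPA replicate 1 and MS4A15 at 0.013 RPKM in the same library, and both were listed at 0 in the other 3. MS4A4A was listed at 0 in both TPA libraries, and at 0 and 0.015 RPKM in the controls. Each of these values is worth under 4 reads on each kb. MS4A2, MS4A3 and MS4A6A were listed at 0 in all 4 libraries, and no order can be given among these 7 members.

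Of the 10 members, 2 passed the filter of at least 1 RPKM in at least 2 libraries, MS4A1 and MS4A7, and both did so through the TPA libraries alone. They had to differ between groups to be tested, so their count is no result. For the whole table, 58.2% of the 12159 genes tested were called, 28.4% higher with TPA and 29.8% lower (limma, adjusted p under 0.05). Both TPA values lay above both controls in 38.8% of them and below both in 41%.

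The family members outside this set that had expression values stayed at or below 0.023 RPKM in every library. MS4A4E, another member, had none. MS4A5, MS4A6E and MS4A13, and TMEM176B, a more distant relative on chromosome 7, were listed at 0 in all 4 libraries. MS4A18 and TMEM176A reached 0.010 and 0.023 RPKM in 1 TPA library each, and MS4A10 and TMEM176A 0.010 and 0.021 RPKM in 1 control library each. With these, 15 MS4A genes were in the table, of which MS4A1, MS4A7 and MS4A14 passed 0.1 RPKM in any library.

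By their order along chromosome 11 in RefSeq GRCh38, the raised genes lie close together. MS4A7 is followed by MS4A14, MS4A5 and MS4A1, in a run of 4 neighbouring table entries. MS4A5, between MS4A14 and MS4A1, was listed at 0 in every library, as were MS4A6E before the run and MS4A13 behind it, while MS4A12, next after MS4A1, had the 1 value of 0.021 RPKM given above. The 300 bases around the annotated start of MS4A7, MS4A14 and MS4A5, listed at 0 between the raised genes, are shown, from 250 bases before the start to 50 after it, as RefSeq gives them on GRCh38.p14; all 3 are on the plus strand, at chr11:60378282-60378581 for MS4A7, chr11:60396209-60396508 for MS4A14 and chr11:60429322-60429621 for MS4A5. Capitals mark GAGGAA, the core bound by PU.1 and its relative SPIB, and TGACTCA, the site of AP-1 factors.
MS4A7: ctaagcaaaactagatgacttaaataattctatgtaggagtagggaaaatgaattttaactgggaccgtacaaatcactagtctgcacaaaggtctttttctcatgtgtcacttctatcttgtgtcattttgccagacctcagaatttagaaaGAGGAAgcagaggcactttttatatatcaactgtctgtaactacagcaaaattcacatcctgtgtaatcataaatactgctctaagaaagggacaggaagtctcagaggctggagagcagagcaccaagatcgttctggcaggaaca
MS4A14: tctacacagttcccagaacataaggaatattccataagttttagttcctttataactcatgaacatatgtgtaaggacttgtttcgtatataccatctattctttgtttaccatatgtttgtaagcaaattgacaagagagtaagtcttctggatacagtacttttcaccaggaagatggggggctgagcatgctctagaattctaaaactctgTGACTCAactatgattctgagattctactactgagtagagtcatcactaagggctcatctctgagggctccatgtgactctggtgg
MS4A5: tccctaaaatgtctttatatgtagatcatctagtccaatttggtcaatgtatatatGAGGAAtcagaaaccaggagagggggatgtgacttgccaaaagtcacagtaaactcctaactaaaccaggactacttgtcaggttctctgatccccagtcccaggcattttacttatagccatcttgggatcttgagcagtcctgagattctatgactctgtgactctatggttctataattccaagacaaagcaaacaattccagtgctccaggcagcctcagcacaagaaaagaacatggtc

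The search covered both strands for the PU.1 core GAGGAA and the AP-1 site TGACTCA, and also for ATGCAAA (the core of the octamer bound by Oct factors), CACGTG (an E-box bound by USF factors) and the general E-box CANNTG, which contains CACGTG. These motifs were chosen with the values known. Among 35116 RefSeq start windows of this length, 27.9% held GAGGAA, 4.95% TGACTCA, 4.46% ATGCAAA, 7.26% CACGTG and 68.7% CANNTG. The window of MS4A7 held GAGGAA from 97 to 92 bases before the start, and 2 matches to CANNTG. The window of MS4A14 held TGACTCA from 36 to 30 bases before the start, and 3 matches to CANNTG. The window of MS4A5 held GAGGAA as well, from 194 to 189 bases before the start. Of the 12 MS4A genes with both expression values and a window, 7 held GAGGAA, 1 held TGACTCA (MS4A14), 1 held CACGTG (MS4A6A), 0 held ATGCAAA and 10 held CANNTG. The 7 with GAGGAA were MS4A2, MS4A3, MS4A4A, MS4A5, MS4A6A, MS4A7 and MS4A12. All of these but MS4A7 stayed at or below 0.021 RPKM in every library. A gene was counted if any of its windows held the motif, and the 13 MS4A genes with a window had 16 in all. These counts per gene are therefore not comparable with the shares per window above. Of the 3 raised genes, MS4A7 held the PU.1 core, MS4A14 did not, and MS4A1 had no window.

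Beyond the cluster, the shares of genes called in each direction were near those of the whole table, 28.4% higher and 29.8% lower. Among the nearest 20 table entries on each side, 20 genes reached the filter: 7 (35%) were higher, 6 (30%) were lower and 7 missed the threshold. The median log2 difference was -0.11 against -0.024 over all genes tested. The filter was passed through the TPA libraries alone by 3 of these genes, which could only be higher. Of the other 17, 4 were higher. The nearest tested gene on the MS4A10 side, CCDC86, a nucleolar protein gene, had 23.6 and 24.5 RPKM with TPA against 43.2 and 44.8 RPKM in control (log2 difference -0.85, SE 0.129, limma adjusted p = 7.81e-04). The nearest on the MS4A3 side, the ribosomal protein gene MRPL16 of mitochondria, did not pass, with 34.2 and 44.2 RPKM with TPA against 35.4 and 42.0 RPKM in control. CD6, a lymphocyte scavenger receptor gene, had 5.86 and 4.34 RPKM with TPA against 0.065 and 0.027 RPKM in control (log2 difference 2.53, SE 0.155, limma adjusted p = 5.60e-06). CD6 passed the filter through the TPA libraries alone and could only be higher, so its p-value is not read as a result. TMEM132A had 22.2 and 23.8 RPKM with TPA against 4.20 and 4.26 RPKM in control. CD5, a lymphocyte receptor gene next to CD6, stayed at 0.076 and 0.089 RPKM with TPA and at 0 in both controls. Over all 153 other genes of the bands 11q12.1 and 11q12.2, 48 reached the filter. Of these, 13 (27.1%) were higher, 15 (31.2%) lower and 20 uncalled. The filter was passed through the TPA libraries alone by 5 genes, which could only be higher, and through the controls alone by 1, FAM111B, which could only be lower. Of the other 42, 8 were higher. On the log2(RPKM + 1) scale the largest differences in these bands were falls. FAM111B had 0.377 and 0.439 RPKM with TPA against 42.1 and 44.5 RPKM in control (log2 difference -4.97). FEN1 had 6.17 and 7.05 RPKM with TPA against 117 and 132 RPKM in control (log2 difference -4.04). The largest rise was that of YPEL4 (log2 difference 3.08), which passed the filter through the TPA libraries alone. OSBP and VPS37C, 2 of the 7 nearby genes called higher, lost that call without control replicate 1 (limma adjusted p = 0.109 and 0.0629) and without control replicate 2 (limma adjusted p = 0.137 and 0.230).

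**Figure D2:**
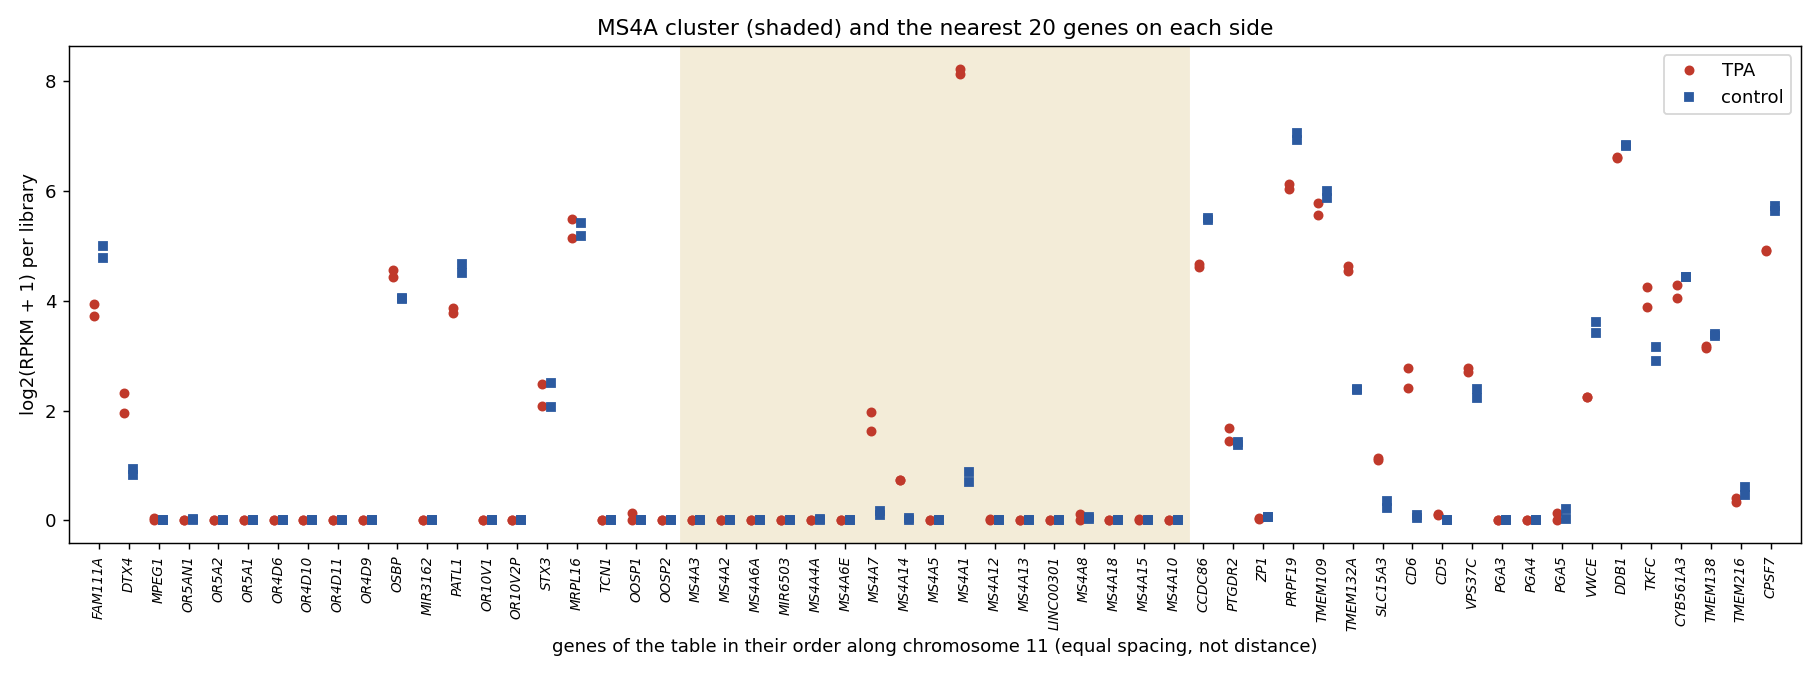
Level on the log2(RPKM + 1) scale in each library (TPA red circles, control blue squares) for the MS4A cluster, shaded, and the nearest 20 table entries on each side, in chromosomal order with equal spacing. Within the shaded block MS4A1, MS4A7 and MS4A14 stand above 0.5 with TPA, while neighbours on both sides include genes higher, lower and at 0.

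The members' usual cell types were checked through their markers. All 14 pre-B markers were tested, and 4 rose and 10 fell, beside 28.4% higher and 29.8% lower over all genes tested. MME, among those that fell, passed the filter through the controls alone and could only be lower. The median log2 difference of the list was -2.27. On the log2(RPKM + 1) scale IGLL1, DNTT and VPREB1, genes used in B-cell precursors, fell furthest. By ratio of mean RPKM MME fell furthest, 90.9-fold against 51.0-fold for IGLL1, to 0.097 and 0.083 RPKM with TPA. The surrogate light chain gene IGLL1 had 4.86 and 13.1 RPKM with TPA against 459 and 455 RPKM in control, and its partner VPREB1 had 7.12 and 20.2 RPKM with TPA against 338 and 356 RPKM in control. DNTT, the gene of the polymerase that adds bases at antibody gene joints, had 14.6 and 37.4 RPKM with TPA against 775 and 803 RPKM in control, and the recombinase gene RAG2 had 2.48 and 5.66 RPKM with TPA against 46.0 and 42.1 RPKM in control. In IGLL1, VPREB1, DNTT and RAG2, TPA replicate 2 was at least 2 times as high as replicate 1, and both lay far below the controls. The B-cell receptor chain gene CD79A rose, with 823 and 893 RPKM with TPA against 218 and 199 RPKM in control, as did VPREB3, with 869 and 932 RPKM with TPA against 480 and 397 RPKM in control. The list summed to 2137 and 2402 RPKM with TPA against 2873 and 2800 RPKM in control, a sum over genes that moved in opposite directions. Of 16 macrophage and monocyte markers, 9 were listed at 0 in all 4 libraries, among them CD163, MRC1, MARCO and the complement genes C1QA, C1QB and C1QC, while MS4A7 had its 2.51 RPKM with TPA. The summed RPKM of this list was 13.1 and 16.3 with TPA against 1.21 and 1.68 in control, and both tested members, the lysosomal gene CD68 and the receptor gene CSF1R, rose, having passed the filter through the TPA libraries alone. CD68 had 9.85 and 12.3 RPKM with TPA against 0.554 and 0.731 RPKM in control, and CSF1R 2.93 and 3.66 RPKM with TPA against 0.548 and 0.706 RPKM in control. Their part in the level of MS4A7 was not tested.

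MS4A2 works only together with partner chains, so those were read as well. The alpha chain gene FCER1A, which binds IgE, was listed at 0 in every library, like MS4A2. The shared gamma chain gene FCER1G had 24.2 and 55.3 RPKM with TPA, against 0 and 0.187 RPKM in control. Both TPA values were far above the controls but differed from each other by more than 2-fold (log2 difference 5.11, SE 0.325, limma adjusted p = 6.85e-06). FCER1G passed the filter through the TPA libraries alone and could only be higher, so its p-value is not read as a result. SYK, the kinase recruited by these chains, fell, with 5.03 and 7.08 RPKM with TPA against 13.7 and 13.9 RPKM in control (log2 difference -1.08, SE 0.165, adjusted p = 7.84e-04). Of 12 mast cell and basophil markers only SLC18A2 passed the filter, and it did not pass the test; CPA3 and HPGDS were listed at 0 in every library. The list summed to 4.0 and 3.3 RPKM with TPA against 3.1 and 3.5 RPKM in control. For MS4A3, none of 8 granulocyte precursor markers reached the filter, with sums of 0.046 and 0.055 RPKM with TPA against 0.235 and 0.431 RPKM in control. For MS4A12, 1 of 10 colon markers did and it did not pass the test, with sums of 1.24 and 1.14 RPKM with TPA against 1.49 and 1.24 RPKM in control. None of 9 T cell markers reached the filter, with sums of 0.043 and 0.035 RPKM with TPA against 0.299 and 0.929 RPKM in control.

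Factors reported to act on MS4A1 moved in both directions. Of 23 listed, 22 reached the filter, of which 10 were higher, 7 lower and 5 uncalled, beside 28.4% higher and 29.8% lower over all genes tested, and the median log2 difference was 0.17. This list and those below were compiled with results of these data known. POU2F2, the gene of Oct-2, which binds the MS4A1 promoter, had 66.0 and 46.4 RPKM with TPA against 0.467 and 0.289 RPKM in control (log2 difference 5.36, SE 0.184, limma adjusted p = 4.64e-07). It was the 1 factor that passed the filter through the TPA libraries alone and could only be higher, so its p-value is not read as a result. Of the other 21 factors tested, 9 were higher. SPIB, an Ets factor gene related to PU.1, had 101 and 81.9 RPKM with TPA against 3.66 and 5.01 RPKM in control, whereas SPI1, the PU.1 gene itself, was below the filter at 0.419 and 0.399 RPKM with TPA against 0.456 and 0.500 RPKM in control. IRF4 and IRF8, which pair with those Ets factors, had 53.1 ± 7.52 and 16.8 ± 0.0693 RPKM with TPA against 17.2 ± 2.50 and 4.68 ± 0.874 RPKM in control (SD, n = 2), and both rose. FOXO1, reported as a repressor of MS4A1, rose too, with 17.6 and 13.8 RPKM with TPA against 8.02 and 6.36 RPKM in control.

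Other factors of the same list were lower. The part of any listed factor in the level of MS4A1 was not tested. TCF3, the gene of the E-box factor E47, had 35.5 and 48.8 RPKM with TPA against 113 and 98.6 RPKM in control (log2 difference -1.32, SE 0.178, limma adjusted p = 4.01e-04). PAX5 and EBF1, B-lineage factors, and ETS1 and EZH2, the gene of a histone methyltransferase, also fell, with log2 differences of -1.20, -1.70, -1.32 and -1.08. The coactivator gene POU2AF1, which works with Oct factors, did not pass, with 41.6 and 39.1 RPKM with TPA against 42.0 and 30.6 RPKM in control. The fall of POU2F1, the Oct-1 gene (log2 difference -0.45, adjusted p = 0.0182), was lost without control replicate 1 (adjusted p = 0.0690) and without control replicate 2 (adjusted p = 0.194). The rise of USF2 (log2 difference 0.43, adjusted p = 0.0453) was lost without control replicate 1, control replicate 2 or TPA replicate 2 (adjusted p = 0.150, 0.208 and 0.216).

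**Figure D3:**
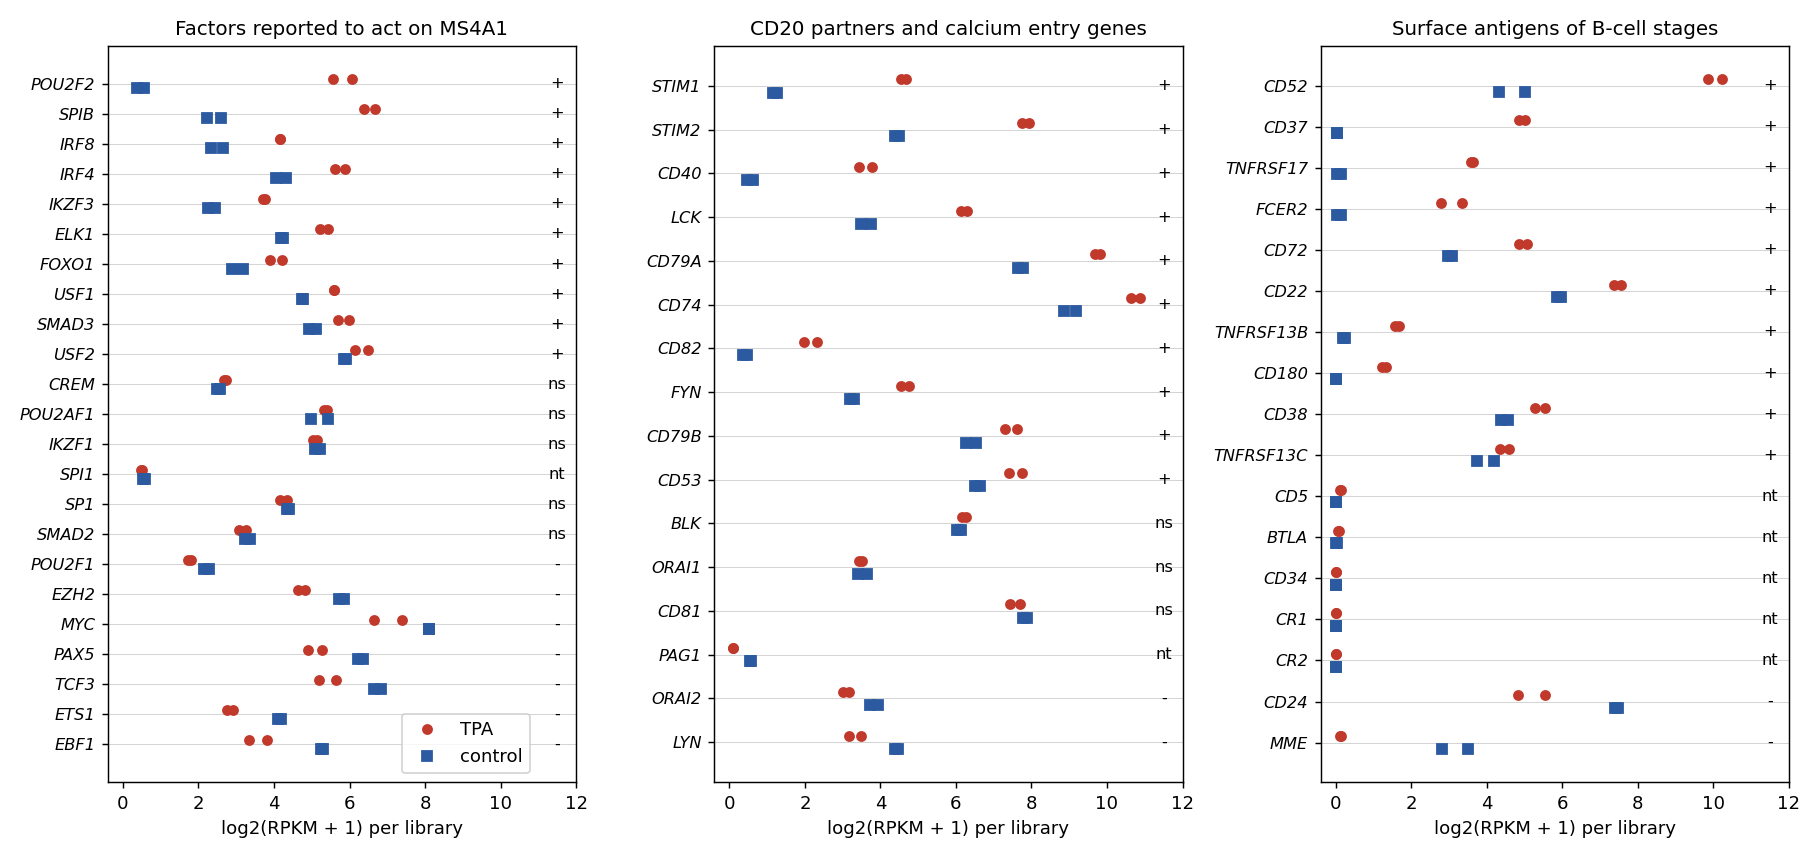
Level on the log2(RPKM + 1) scale in each library (TPA red circles, control blue squares) for 3 gene lists around CD20, ordered by the TPA minus control difference from the top; + marks genes that rose, - genes that fell, ns genes that did not pass and nt genes not tested; 1 antigen of the third list is not drawn. POU2F2, STIM1 and CD52 head their lists and EBF1, LYN and MME close them.

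Genes of proteins found with CD20 in the membrane were read together with those of calcium entry. Of 16 listed, 15 reached the filter, of which 10 were higher, 2 lower and 3 uncalled, beside 28.4% higher and 29.8% lower over all genes tested. CD40 and CD82 passed the filter through the TPA libraries alone and could only be higher; of the other 13, 8 were higher. The list had a median log2 difference of 1.41 against -0.024 over all genes tested. The calcium sensor genes STIM1 and STIM2 had 23.6 ± 1.62 and 229 ± 18.3 RPKM with TPA, against 1.30 ± 0.119 and 20.6 ± 0.943 RPKM in control (SD, n = 2; log2 differences 3.42 and 3.41). The channel gene ORAI1 did not pass, with 9.75 and 10.5 RPKM with TPA against 11.6 and 9.58 RPKM in control, and ORAI2 fell. CD40, a receptor reported beside CD20, had 9.75 and 12.6 RPKM with TPA against 0.376 and 0.530 RPKM in control (log2 difference 3.06, SE 0.157, limma adjusted p = 2.33e-06). As CD40 could only be higher, its p-value is not read as a result. Among the Src kinase genes LCK and FYN rose and LYN fell, with log2 differences of 2.61, 1.41 and -1.11, and BLK did not pass. PAG1, the gene of the adaptor that ties Src kinases to rafts, was below the filter, with 0.073 and 0.061 RPKM with TPA against 0.498 and 0.455 RPKM in control.

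Among antigens that mark B-cell stages, MS4A1 with TPA was second in RPKM to CD52, a target of therapeutic antibodies, which had 933 and 1191 RPKM with TPA against 31.2 and 19.0 RPKM in control. CD22, an inhibitory receptor gene of B cells, followed MS4A1, with 164 and 187 RPKM with TPA against 61.1 and 56.5 RPKM in control, and the TPA values of these 3 genes did not overlap. In control, MS4A1 was lower than CD22, CD52, CD38 and CD24 in both libraries. Of 18 antigens other than CD20, 13 reached the filter, of which 11 were higher and 2 lower, beside 28.4% higher and 29.8% lower over all genes tested. CD37, FCER2, TNFRSF13B, TNFRSF17 and CD180 passed the filter through the TPA libraries alone and could only be higher, and MME passed it through the controls alone, so the count is not read as a result; of the other 7, 6 were higher. The rises included CD37 (27.6 and 31.5 RPKM with TPA against 0.018 RPKM in both controls), FCER2, the low-affinity IgE receptor gene (5.94 and 9.06 RPKM with TPA against 0.014 and 0.089 RPKM in control), and TNFRSF17, the plasma cell receptor gene BCMA (11.1 and 11.4 RPKM with TPA against 0.108 and 0.022 RPKM in control). The 2 that fell were the precursor antigens MME, the gene of CD10 (0.097 and 0.083 RPKM with TPA against 10.4 and 5.99 RPKM in control), and CD24 (27.5 and 45.8 RPKM with TPA against 166 and 175 RPKM in control). CR2, a complement receptor gene of mature B cells, was listed at 0 in every library. Without TPA replicate 1 or TPA replicate 2 only 8 of the antigens passed the filter. Without control replicate 1 or control replicate 2, MME no longer reached the filter and was not tested. The rise of TNFRSF13C (adjusted p = 0.0439) was lost without control replicate 2 (adjusted p = 0.392), without TPA replicate 1 (adjusted p = 0.113), with median-of-ratios scaling (adjusted p = 0.0746) and with quantile normalization (adjusted p = 0.0625).

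Over the 4 libraries, 10 genes out of 8721 candidates, whose mean reached 5 RPKM, came closest to the profile of MS4A1, by Euclidean distance between centred log2(RPKM + 1) values. RGS1, a regulator of G-protein signalling, was nearest at 0.178, with 279 and 332 RPKM with TPA against 0.976 and 0.549 RPKM in control. TNFRSF9, MMP7, EGR2, KIR3DX1, RGS2, LINC01547, OCSTAMP, PHLDA1 and MB followed at distances of 0.633 to 1.42. With 2 libraries in each group this measure mainly ranks genes by the size of their difference, and no MS4A gene other than MS4A1 met the level of 5 RPKM.

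**Figure D4:**
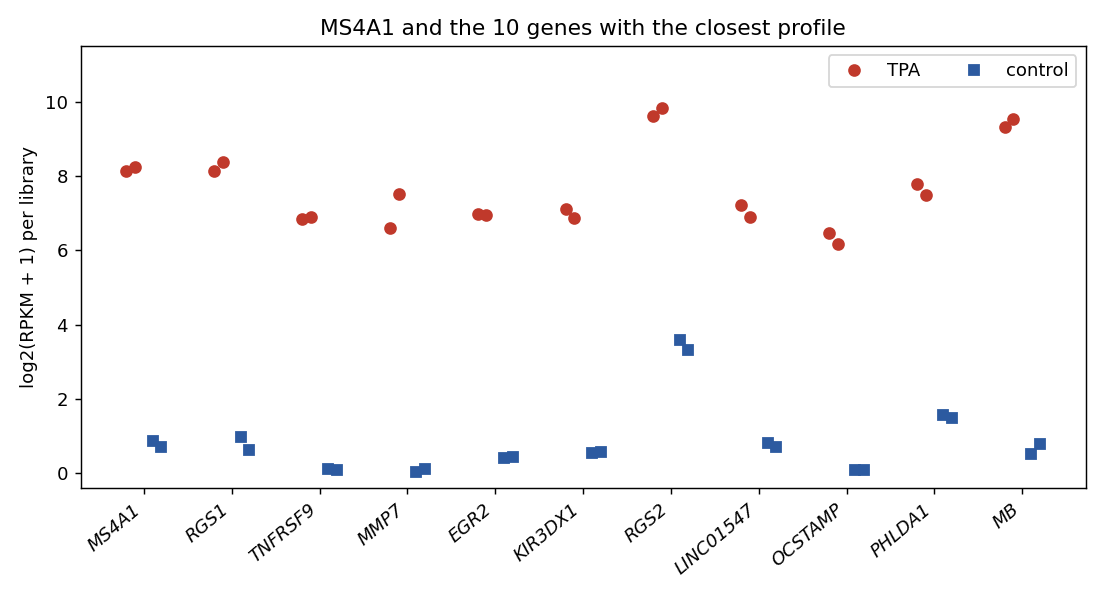
Level on the log2(RPKM + 1) scale in each library (TPA red circles left, control blue squares right) for MS4A1 and the 10 genes whose profile lies closest to it, nearest first. RGS1 has the smallest distance to MS4A1 over the 4 libraries, and RGS2 has the highest control values of these genes.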

How the data were processed

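RNA from 697 cells was sequenced in 4 libraries, 2 with TPA and 2 control, grouped by the submitters' labels. The authors deposited 1 table of RPKM values for 27142 RefSeq genes, per the file headers. The submitters' processing notes name CASAVA 1.8, Bowtie 1.12, TopHat, SAMtools, HOMER and the build hg19, without role or order; strand use and the treatment of shared reads are not given in the sources used here. Read depth was derived from the hairpin steps described above.

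The 12159 genes that reached 1 RPKM in 2 or more libraries were fitted together on log2(RPKM + 1) with limma 3.58.1 in R 4.3.3, using a mean-variance trend and Benjamini-Hochberg adjustment over all genes tested. Calls used adjusted p under 0.05. Promoter windows came from RefSeq GRCh38.p14, which was used otherwise for gene order only.

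The members and lists were chosen with earlier results of these data known. Genes set to be named were the members, their relatives and IgE receptor partners, the 10 closest profiles and 6 set regulators. The 4 genes of smallest p in each direction in each list were set to be named too. Of these, IKZF3, FADS1, FADS3, SSRP1, DTX4, SLC15A3, VWCE, FAM111A and PRPF19 are not described above. Others, such as CCDC86, MRPL16, CD5, POU2AF1, ORAI1, PAG1 and USF2, were picked with their values in view. 1 antigen of the B-stage list is counted but not reported here by itself. The 13 alternatives covered pseudocounts, filters, scalings, variance models, each library left out and a replicate block.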

Additional observations from a re-analysis of the deposited data

How the results depend on the processing

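The log2(RPKM + 1) difference of MS4A1 was 7.40 and became 8.45 with a pseudocount of 0.1 and 7.89 with 0.5, since a smaller pseudocount weighs the low control values more; it was 7.37 with median-of-ratios scaling, 7.34 with quantile normalization and 7.31 to 7.48 with each library left out. By alternatives chosen after seeing the data, MS4A7 (1.66) gave 3.67 and 2.30 with those pseudocounts and 1.38 with quantile normalization, and MS4A14 (0.71) gave 2.72 and 1.17. With each library left out, genes called higher numbered 2516 to 3092 (3454 with all) and genes called lower 2412 to 3911 (3621 with all), the lowest without control replicate 2. B-stage antigens called higher numbered 5 to 11 and called lower 1 to 2, and 11q12 neighbours called higher 8 to 11, with fewer genes passing the filter. A lone library left in a group was assumed to vary like the other group. Directions turned for genes that did not pass the test, and the cause was not tested. With each library left out, POU2AF1 spanned -0.058 (without control replicate 2) to 0.39. IKZF1 gave 0.075 with quantile normalization and -0.12 to 0.0052 with each library left out, the highest without control replicate 2. ORAI1 spanned -0.18 to 0.070 with each library left out, the highest without control replicate 1. STX3 gave -0.23 without control replicate 1, the lowest, 0.21 without control replicate 2 and 0.19 without TPA replicate 1. MRPL16 gave -0.014 with median-of-ratios scaling, -0.11 without control replicate 1 and -0.17 without TPA replicate 2. Of 1193 values for 96 single genes, 1163 kept direction and side of the threshold, 17 lost the call, 4 gained it and 9 turned; 55 could not be tested. With no filter, POU2F1, USF2, TNFRSF13C and VPS37C lost their calls (limma adjusted p = 0.0650, 0.0957, 0.133 and 0.0687). The other 2 calls lost outside the left-out libraries were those of TNFRSF13C under both scalings, and the 11 lost with a library left out were those of POU2F1, USF2, TNFRSF13C, OSBP and VPS37C. The 4 gained were CD81 with median-of-ratios scaling and without TPA replicate 2, and TMEM109 with median-of-ratios scaling and the replicate block. The labels share replicate numbers only, and same-numbered libraries deviated with a correlation of 0.361 across genes. With the replicate block, 3946 genes were called higher and 4288 lower, 11q12 neighbours 14 and 18, regulators 10 and 7, partners 10 and 2, and antigens 11 and 2. Depth limits the 7 members below 0.1 RPKM, of which 3 were listed at 0 throughout and the others had under 4 reads on each kb.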
